A study of Mus musculus with 2 samples.

Results

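The genes of DNA replication and S phase were followed through single-cell RNA sequencing of the mouse retinal endothelium at P6 and P15. The set was a list of 48 symbols, from origin licensing factors to cyclin E, matched to the rows of the count tables by Ensembl gene identifier. All 48 had a row in the P6 table and 47 had one in the P15 table, out of 19813 symbols with a row in both. The list was drawn up by function, with earlier results of these data known. Cells had been sorted by FACS for the endothelial protein CD31 and against the blood cell protein CD45. Each age (postnatal day 6 or 15) was 1 droplet library, and the number and pooling of the mice were not given in the sources used here. The study's methods give a C57BL6 background and as many males as females for its mice in general. The mice were wild-type with no treatment stated, so the groups differed by age and by library, and these cannot be told apart. A unique molecular identifier (UMI) marks each captured mRNA, so that amplified copies are counted once. Levels below are UMIs per 1000000 UMIs of the cells named (CPM), which are relative to all other RNA of those cells, and every interval is a 95% interval for counting error only. With 1 library per age no test over samples was possible, and no p-value was made from cells.

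DNA replication begins with licensing. The origin recognition complex, Cdc6 and Cdt1 load the MCM2-7 helicase on DNA in G1, and cyclin E with Cdk2 promotes entry into S phase. Cdc45, the GINS complex and Mcm10 then turn the helicase on, polymerase alpha with primase starts each strand, and polymerases delta and epsilon extend it on the PCNA clamp, which RFC loads. RPA covers single-stranded DNA, Lig1 seals lagging strand fragments, and ribonucleotide reductase, thymidylate synthase, thymidine kinase and dUTPase supply the nucleotides. Transcription of many of these genes is known to rise at the G1/S transition under E2F factors. Retinal endothelial cells divide while the plexus spreads in the first postnatal week and largely stop as it matures.

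The P6 table held 1984 barcodes with 13958124 UMIs and that of P15 had 2141 barcodes with 11589641 UMIs. The clusters were those the authors named, and the copy of their cell labels used here covered 1560 P6 cells (9642395 UMIs, median 5364 per cell) and the first 438 P15 cells (2140521 UMIs, median 4356 per cell). The libraries shared 7 barcode sequences, and none was labelled in both. All 10 endothelial markers were detected in both libraries, with 9343 CPM in sum at P6 and 15198 CPM at P15. Markers of other cells were lower, and every such list except that of astrocytes was higher at P15 than at P6. The neuron list had 10.6 and 63.1 CPM, the pericyte list 8.30 and 188 CPM, and the erythrocyte list 22.3 and 177 CPM. The astrocyte list had 1.04 and 1.40 CPM, on 10 and 3 UMIs, and did not differ beyond counting error. The leukocyte list summed to 1.14 CPM at P6 (0.569 to 2.04) and 6.54 CPM at P15 (3.58 to 11.0). Neurod1, Cd63 and Hbb-bt, which the authors used to remove cells, were at 0 in labelled cells of both ages. Retinal progenitors also divide in the young retina, and their list summed to 375 CPM at P6 and 1187 CPM at P15, of which Glul, which endothelial cells express too, gave 335 and 1068 CPM. The progenitor markers Sox2, Atoh7 and Sfrp2 were at 0 in labelled P6 cells.

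The region around the transcription start was examined first, because many of the genes are known E2F targets. RefSeq windows of GRCm38.p6, from 250 bases before to 50 after a start, were found for 40 of the 48 genes. No window was in the table for Gins1, Gins2, Gins4, Mcm4, Pole, Prim2, Rfc2 and Ccne2. The E2F motif was searched as TTTCCCGC, TTTGGCGC, TTTCGCGC or TTTGCCGC on either strand, and some of these overlap each other where they meet head to head. It occurred in 15 of 40 genes (37.5%) and in 704 of all 27025 symbols (2.60%). Within a shorter window of 150 bases it occurred in 11 of the 40 genes (27.5%) and in 1.45% of all symbols. The CCAAT box, on either strand, was found in 25 of 40 genes (62.5%) and in 41.1% of all symbols. The element TTTGAA, which many mitotic genes carry, was found in 6 of 40 genes (15%) and in 20.2% of all symbols. Among 26 mitosis genes with a window, the E2F letters were in 1, TTTGAA in 18 and CCAAT in 22, so CCAAT was the most frequent in both lists while TTTGAA was more frequent than the E2F letters in this one.

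The windows below show subunits of the MCM2-7 helicase, whose ratios between the ages differed from one another, together with Cdc6 and Rrm2, whose P15 UMIs lay mostly or all in Proliferative cells. Capitals mark E2F matches, and each sequence runs 5′ to 3′ on the strand of its gene. The positions are chr6:88898731-88899030 on the minus strand for Mcm2, chr1:20820263-20820562 on the minus strand for Mcm3, chr8:75109259-75109558 on the plus strand for Mcm5 and chr1:128359656-128359955 on the minus strand for Mcm6. They are chr5:138171834-138172133 on the minus strand for the upstream of the Mcm7 windows, chr11:98907901-98908200 on the plus strand for Cdc6 and chr12:24708004-24708303 on the plus strand for Rrm2.
Mcm2: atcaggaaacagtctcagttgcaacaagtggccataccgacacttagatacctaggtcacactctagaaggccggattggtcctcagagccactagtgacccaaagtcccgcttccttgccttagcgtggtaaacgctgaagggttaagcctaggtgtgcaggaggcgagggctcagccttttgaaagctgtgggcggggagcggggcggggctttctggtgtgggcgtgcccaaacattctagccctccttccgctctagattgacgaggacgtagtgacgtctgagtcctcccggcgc
Mcm3: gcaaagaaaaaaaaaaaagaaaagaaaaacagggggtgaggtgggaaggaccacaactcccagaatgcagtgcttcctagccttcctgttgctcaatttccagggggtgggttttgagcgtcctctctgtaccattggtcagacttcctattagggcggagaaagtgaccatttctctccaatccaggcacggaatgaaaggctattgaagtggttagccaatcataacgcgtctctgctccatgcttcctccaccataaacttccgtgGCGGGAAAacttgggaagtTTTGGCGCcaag
Mcm5: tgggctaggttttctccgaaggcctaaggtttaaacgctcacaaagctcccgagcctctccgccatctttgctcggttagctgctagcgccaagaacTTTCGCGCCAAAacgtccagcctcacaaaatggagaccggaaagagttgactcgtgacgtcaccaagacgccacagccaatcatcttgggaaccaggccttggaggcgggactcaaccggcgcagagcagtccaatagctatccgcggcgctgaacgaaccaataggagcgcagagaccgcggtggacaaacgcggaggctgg
Mcm6: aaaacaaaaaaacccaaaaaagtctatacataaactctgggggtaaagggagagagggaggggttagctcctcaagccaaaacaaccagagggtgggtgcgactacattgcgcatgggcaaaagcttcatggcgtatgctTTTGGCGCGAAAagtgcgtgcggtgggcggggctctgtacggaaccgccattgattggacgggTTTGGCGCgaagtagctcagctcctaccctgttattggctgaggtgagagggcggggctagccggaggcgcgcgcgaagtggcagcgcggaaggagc
Mcm7: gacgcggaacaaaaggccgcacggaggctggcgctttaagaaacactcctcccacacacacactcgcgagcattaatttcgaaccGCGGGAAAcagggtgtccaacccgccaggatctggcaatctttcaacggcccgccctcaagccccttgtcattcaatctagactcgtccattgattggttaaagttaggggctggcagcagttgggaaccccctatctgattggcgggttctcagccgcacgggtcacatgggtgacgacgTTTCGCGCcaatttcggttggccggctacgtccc
Cdc6: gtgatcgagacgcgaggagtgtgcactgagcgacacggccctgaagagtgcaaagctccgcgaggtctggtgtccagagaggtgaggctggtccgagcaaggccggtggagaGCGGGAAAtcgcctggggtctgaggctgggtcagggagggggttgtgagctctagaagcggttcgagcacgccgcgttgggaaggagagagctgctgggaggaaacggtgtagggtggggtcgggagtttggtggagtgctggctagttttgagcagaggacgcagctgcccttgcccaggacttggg
Rrm2: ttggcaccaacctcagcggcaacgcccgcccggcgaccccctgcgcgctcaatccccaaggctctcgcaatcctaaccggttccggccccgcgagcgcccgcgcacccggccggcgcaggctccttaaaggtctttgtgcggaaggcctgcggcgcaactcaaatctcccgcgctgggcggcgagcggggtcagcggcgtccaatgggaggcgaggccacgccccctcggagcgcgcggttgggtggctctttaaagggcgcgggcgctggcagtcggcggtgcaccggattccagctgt
Mcm5 carries 2 overlapping matches and Mcm6 carries 3, of which 2 overlap. Mcm3 and Mcm7 carry 2 each and Cdc6 carries 1. Mcm2 and Rrm2 hold none of these letters, which says nothing of whether the factor binds there. Genes with and without a match overlapped in their difference between ages. The median P6 to P15 ratio of level was 3.5 over the 15 genes with a match (range 0.957 to 7.44) and 2.81 over the 23 genes without one that had a ratio (range 1.37 to 7.19).

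Replication genes were higher at P6 than at P15. Over the 47 genes in both tables the summed level was 2027 CPM at P6 (1998 to 2055, 19543 UMIs) and 746 CPM at P15 (709 to 783, 1596 UMIs), a ratio of 2.72 (2.58 to 2.86). By single genes, 35 of 47 were at least 2-fold higher at P6 and none was at least 2-fold lower, where 8.85% of the 12246 genes with at least 20 UMIs were higher by that much and 8.78% lower. The median gene ratio was 3.30 over the replication genes and 0.928 over all genes tested, a shift of −0.11 on the log2 scale. Set against that shift the summed ratio was 2.93 and 37 genes were past 2-fold. The marker lists of other cell types given above, except that of astrocytes, were higher at P15, and their part in the difference was not tested.

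**Figure D1:**
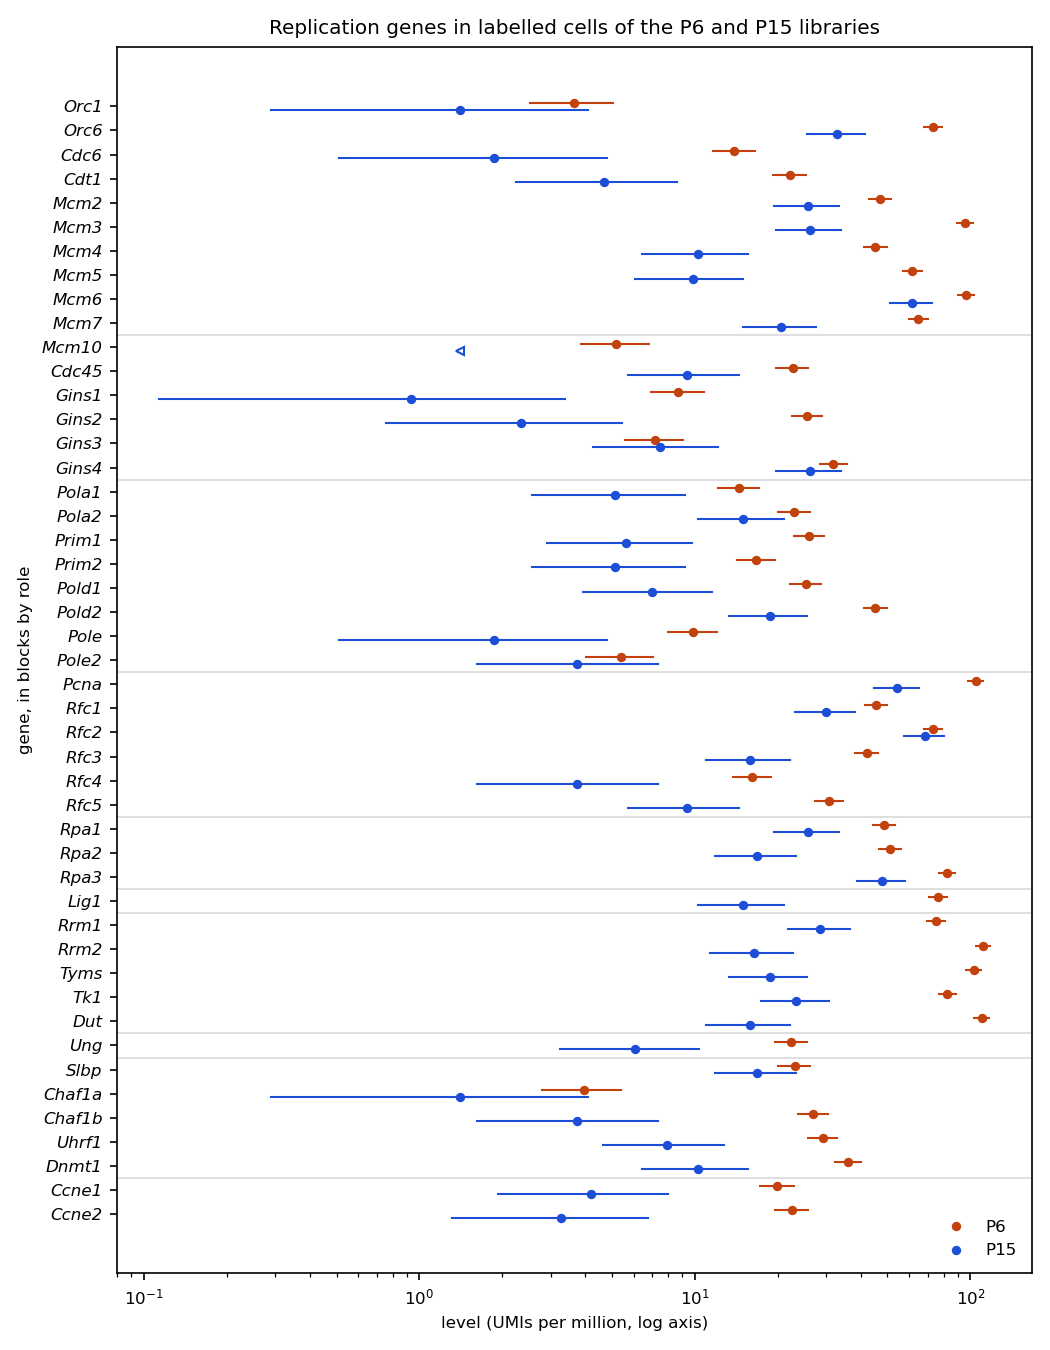
Level of each of the 47 replication genes in labelled cells of the P6 library (orange) and the P15 library (blue), in CPM on a log axis, with bars for the 95% Poisson interval and grey lines between roles. The open triangle marks Mcm10, which had 0 UMIs at P15, at the level that 3 UMIs would give. P6 points lie to the right of P15 points for 46 genes, and Gins3 has nearly the same level at both ages.

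Among licensing factors, the summed level was 524 CPM at P6 and 194 CPM at P15, a ratio of 2.70 (2.44 to 2.99). Cdc6, the loader that brings the helicase to origins, had 13.9 CPM at P6 and 1.87 CPM at P15, 7.44-fold higher (2.84 to 27.7) on 134 and 4 UMIs. Cdt1, its partner in loading, had 22.1 and 4.67 CPM, 4.73-fold higher (2.52 to 10.0). Both loaders were thus rare transcripts at P15, with 10 UMIs or fewer. Orc6, a subunit of the origin recognition complex, had 73.4 and 32.7 CPM, 2.25-fold higher (1.75 to 2.91). Orc1, the ATPase subunit of that complex, was near the limit of detection with 35 and 3 UMIs, and its ratio of 2.59 (0.816 to 13.2) was not resolved at this depth.

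The 6 subunits of the MCM2-7 ring, which act in equal numbers, were not higher by equal ratios. Mcm5 had 61.6 CPM at P6 and 9.81 CPM at P15, 6.28-fold higher (4.07 to 10.2). Mcm6 had 96.7 and 61.2 CPM, 1.58-fold higher (1.31 to 1.91), so that its interval lay below that of Mcm5. The others lay between, with Mcm4 at 4.40-fold, Mcm3 at 3.65-fold, Mcm7 at 3.14-fold and Mcm2 at 1.83-fold.

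The helicase activators split in the same way. Gins2 had 25.6 CPM at P6 and 2.34 CPM at P15, 11.0-fold higher (4.64 to 34.1) on 247 and 5 UMIs. Gins1 had 84 and 2 UMIs, a ratio of 9.32 (2.50 to 78.3). The intervals of the other two GINS subunits held 1, since Gins4 had 31.8 and 26.2 CPM (ratio 1.22, 0.913 to 1.65) and Gins3 7.16 and 7.47 CPM (ratio 0.957, 0.550 to 1.77). Mcm10 had 50 UMIs at P6 and none at P15, at least 3.70-fold higher when 3 UMIs are allowed at P15. Cdc45, which completes the active helicase, had 22.6 and 9.34 CPM, 2.42-fold higher (1.53 to 4.04).

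Polymerases and primase were 2.67-fold higher in sum (2.24 to 3.21). Pole, the catalytic subunit of polymerase epsilon, had 9.85 CPM at P6 and 1.87 CPM at P15, 5.27-fold higher (1.99 to 19.7). Prim1, the catalytic primase subunit, had 26.0 and 5.61 CPM, 4.64-fold higher (2.61 to 9.11). Of the accessory subunits, Pola2 was at 1.53-fold (1.06 to 2.30) and Pole2 at 1.44-fold (0.681 to 3.52), the latter with 8 UMIs at P15. Prim2, the partner of Prim1, was at 3.25-fold (1.77 to 6.64). The intervals of Prim2 and Pole2 overlapped those of Prim1 and Pole. The rest, namely Pold1, Pola1 and Pold2, lay between 2.42-fold and 3.61-fold.

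The clamp and its loader had the smallest ratio of the 10 roles, 1.72 (1.55 to 1.92). Pcna, the clamp itself, had 104 CPM at P6 and 54.2 CPM at P15, 1.93-fold higher (1.59 to 2.36). Rfc2 had 73.2 and 68.2 CPM, a ratio of 1.07 (0.897 to 1.29), while Rfc4 had 16.2 and 3.74 CPM, a ratio of 4.33 (2.14 to 10.2), so that subunits of the same loader differed. Rfc5 and Rfc3 were 3.30-fold and 2.64-fold higher, and Rfc1, the large subunit, was 1.52-fold higher (1.17 to 2.01). RPA was 2.02-fold higher in sum, from 1.73-fold for Rpa3 (1.40 to 2.15) to 3.04-fold for Rpa2 (2.17 to 4.39).

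Nucleotide supply had a ratio of 4.69 in sum (4.09 to 5.39). Dut, the dUTPase, had 110 CPM at P6 and 15.9 CPM at P15, 6.91-fold higher (4.92 to 10.0). Rrm2, the subunit of ribonucleotide reductase made in S phase, had 111 and 16.4 CPM, 6.81-fold higher (4.87 to 9.83), and its partner Rrm1 had 75.1 and 28.5 CPM, 2.63-fold higher (2.03 to 3.48). Tyms, thymidylate synthase, was 5.50-fold higher (4.01 to 7.75). The interval of this role lay above that of the clamp and loader. Tk1, thymidine kinase, had 82.4 and 23.4 CPM, 3.53-fold higher (2.65 to 4.80). Ung, which removes uracil from DNA, was 3.69-fold higher (2.11 to 7.04), and Lig1, the replicative ligase, was 5.11-fold higher (3.59 to 7.53).

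The chromatin and histone genes spanned a wide range. Chaf1b, a subunit of the chromatin assembly factor CAF-1, had 26.9 CPM at P6 and 3.74 CPM at P15, 7.19-fold higher (3.59 to 16.8). Its partner Chaf1a had 38 and 3 UMIs, and the ratio of 2.81 (0.892 to 14.2) was not resolved. Uhrf1, which guides methylation of new DNA, and the methyltransferase Dnmt1 were 3.67-fold and 3.5-fold higher. Slbp, which binds the ends of histone mRNAs, had 23.0 and 16.8 CPM, a ratio of 1.37 (0.959 to 2.01). Both cyclins E were higher at P6, Ccne2 by 6.88-fold (3.28 to 17.3) and Ccne1 by 4.74-fold (2.44 to 10.5). Fen1, the flap nuclease of lagging strand maturation, could not be read here, since it had 1 UMI in all P6 barcodes, none of it in a labelled cell, and no row at P15. It lies at chr19:10199132-10204169 of GRCm38 on the minus strand and overlaps Tmem258, on the other strand, which had 4050 UMIs in labelled P6 cells. Whether reads of the locus were assigned to the neighbour was not tested. In the GENCODE annotation of that build 19 of the 48 genes overlap a gene on the other strand and 12 one on the same strand, among them Mcm7, which holds Mir25, Mir93 and Mir106b, and use of strand in the counting was not given.

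Some ratios moved by more than 1.5 times when all cells that passed the authors' stated filter were used in place of the labelled ones (1424 at P6 and 1644 at P15). Rrm2 went to 17.4 (12.7 to 24.6), Cdc6 to 14.8 (6.54 to 41.3) and Ccne1 to 11.4 (5.97 to 24.3). Pole went to 12.7 (5.19 to 40.5), Tk1 to 7.28 (5.74 to 9.36) and Uhrf1 to 6.23 (4.23 to 9.49). All of these became larger, and Cdt1 (8.43) and Orc1 (5.54) did too. Gins1 (5.30) and Gins2 (6.10) became smaller, and Gins3 (1.48) became larger with an interval from 0.913 to 2.42. Rfc2 (1.03), Gins4 (1.09) and Slbp (1.16) stayed near 1. For Rrm2 and Tk1 these intervals lay apart from those of the labelled cells (4.87 to 9.83 and 2.65 to 4.80). The summed ratio was 2.68.

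The next question was in which clusters of endothelial cells the genes were expressed. At P6 the summed level was highest in the Proliferative cluster (4276 CPM, 4178 to 4376, 198 cells), which the authors named from Mki67 and Ccne1/2, and next in the Primitive cluster (3036 CPM, 2926 to 3150, 155 cells). Capillary (1861 CPM, 1746 to 1982) followed and lay above Stalk (1676 CPM, 1609 to 1745), and the interval of Arterial (1731 CPM, 1552 to 1924) overlapped both. Tip (1297 CPM) and Cap-Venous (1288 CPM) did not differ beyond counting error either, and Venous (872 CPM) and Cap-Arterial (867 CPM) were the lowest pair. At P15 the Proliferative cluster had 3363 CPM (3027 to 3725) in 14 cells, and the others lay between 548 CPM in Cap-Arterial and 745 CPM in Venous, which had only 2 cells. The authors' clusters came from principal components of the integrated expression values, and these genes may have been among them, so contrasts between clusters describe them and are no evidence of their own.

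**Figure D2:**
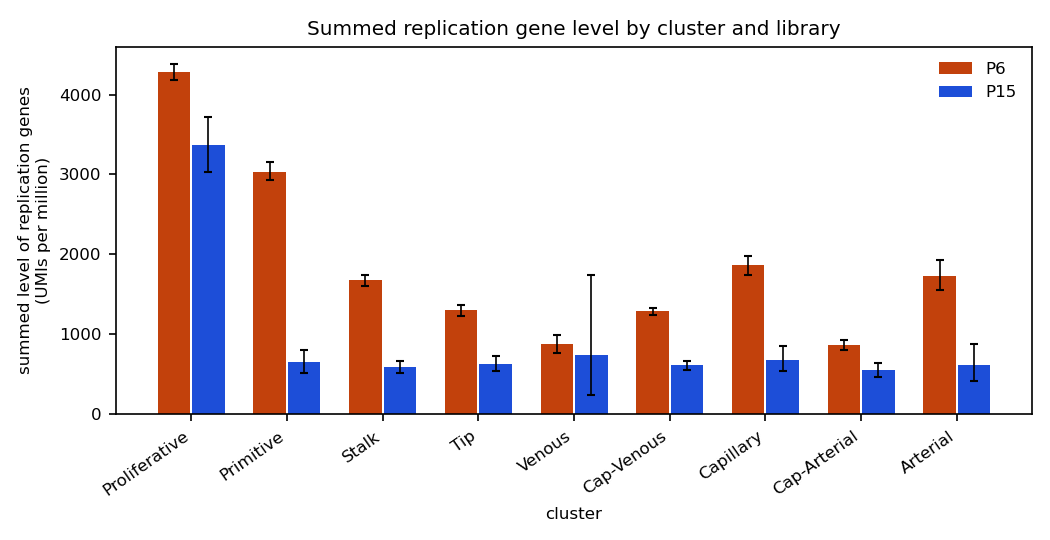
Summed level of the 47 replication genes, in CPM, in each cluster of the P6 (orange) and P15 (blue) libraries, with bars for the 95% Poisson interval. The P6 bars are highest in Proliferative and Primitive, and at P15 every bar but the Proliferative one is at 745 or lower.

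In the Proliferative cluster the 2 ages were close, with a P6 to P15 ratio of 1.27 (1.14 to 1.42). The Primitive cluster was not alike at the 2 ages, with 3036 CPM at P6 and 646 CPM at P15, a ratio of 4.70 (3.77 to 5.95). Its P6 and P15 cells also differed in depth, with medians of 5148 and 2704.5 UMIs. Their endothelial markers had 5172 and 11121 CPM, the neuron list 6.37 and 323 CPM and the pericyte list 1.06 and 234 CPM. The part of these differences in the ratio was not tested. Proliferative cells made up 12.7% of labelled cells at P6 and 3.20% at P15, and Primitive cells 9.94% and 8.22%. The difference between ages was also present in the clusters that do not carry a name tied to growth. It was 2.84 in Stalk (2.48 to 3.27), 2.73 in Capillary (2.15 to 3.52), 2.11 in Cap-Venous (1.92 to 2.33), 2.08 in Tip (1.78 to 2.45) and 1.58 in Cap-Arterial (1.33 to 1.88). In Arterial it was 2.83 (1.95 to 4.26). In Venous, with 5 UMIs at P15, it was 1.17 (0.494 to 3.63) and could not be resolved.

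Outside Proliferative and Primitive together, 1207 P6 cells had 1355 CPM and 388 P15 cells had 602 CPM, a ratio of 2.25 (2.12 to 2.39). Of 44 genes with at least 20 UMIs there, 29 were at least 2-fold higher at P6 and none 2-fold lower, where 7.64% of all genes were higher and 7.04% lower. Several genes had a larger ratio in these cells than the summed level. Rrm2 had 44.7 CPM at P6 and 2.10 CPM at P15, 21.3-fold higher (8.24 to 78.7) on 314 and 4 UMIs. Mcm5 had 36.0 and 2.62 CPM, 13.7-fold higher (5.81 to 42.7), and Dut had 67.5 and 8.91 CPM, 7.57-fold higher (4.68 to 13.1). Uhrf1 (128 and 3 UMIs, ratio 11.6, 3.88 to 56.9), Prim1 (109 and 2 UMIs, ratio 14.8, 4.0 to 124) and Chaf1b (116 and 2 UMIs, ratio 15.7, 4.26 to 132) were also higher at P6. Cdc6 had 58 UMIs at P6 and none at P15, at least 5.25-fold higher when 3 UMIs are allowed.

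Another group had nearly equal levels at both ages in these clusters. Rfc2 had 61.5 CPM at P6 and 68.7 CPM at P15 (ratio 0.895, 0.735 to 1.10), Gins4 27.9 and 25.7 CPM (ratio 1.09, 0.791 to 1.52) and Slbp 20.1 and 16.8 CPM (ratio 1.20, 0.810 to 1.82). Rpa3 (1.35-fold, 1.07 to 1.70), Rfc1 (1.44-fold, 1.08 to 1.94) and Mcm6 (1.46-fold, 1.20 to 1.80) were a little higher at P6. Mcm6 and Mcm5 therefore stood at opposite ends of the same ring, with 114 and 5 UMIs in these P15 cells, although their start regions both carry overlapping E2F letters in the sequences above.

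**Figure D3:**
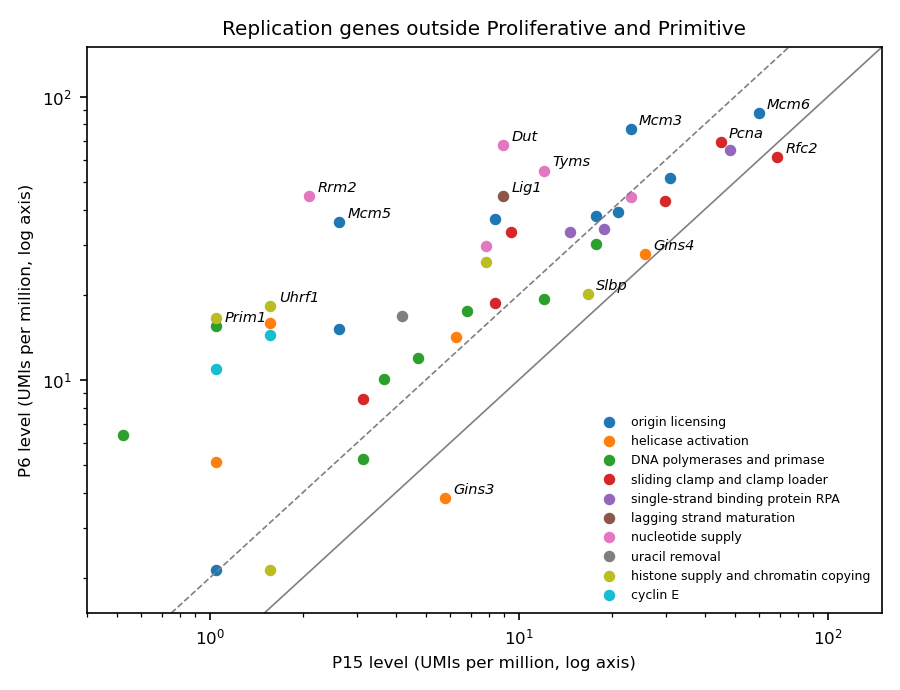
Levels in cells outside the Proliferative and Primitive clusters at P15 (horizontal) and P6 (vertical), in CPM on log axes, for the 45 genes with a UMI at P15, coloured by role. The solid line marks equal levels and the dashed line a 2-fold higher level at P6. Rrm2 and Mcm5 lie far above the dashed line, and Rfc2 and Gins3 lie below the solid one.

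At P6 the Proliferative cluster stood above the other labelled cells by 2.75-fold (2.67 to 2.83), with 35 of 47 genes at least 2-fold higher and none lower by that much, against 5.44% higher and 7.59% lower of 11734 genes. Rrm2 had 349.9 CPM there and 61.2 CPM elsewhere, 5.71-fold higher (5.06 to 6.46). Tk1 followed with 253 and 46.7 CPM, 5.41-fold higher (4.70 to 6.24). Ung, at 31.1 and 20.6 CPM, was at the low end with a ratio of 1.51 (1.08 to 2.07), beside Gins4 (1.51), Mcm6 (1.53) and Pole2 (1.28, 0.592 to 2.53). Enzymes of nucleotide supply thus led at 4.08-fold in sum, and licensing factors (2.25-fold) and the clamp and loader (2.26-fold) lay near RPA (2.15-fold).

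At P15 the contrast was larger, 5.56-fold (4.93 to 6.25), with 367 UMIs in the 14 Proliferative cells. These cells held 5.10% of labelled P15 UMIs and 23.0% of the UMIs of replication genes. They held 31 of 35 Rrm2 UMIs (88.6%), 14 of 17 Uhrf1 UMIs (82.4%), 7 of 9 Ccne1 UMIs (77.8%), 16 of 21 Mcm5 UMIs (76.2%) and 34 of 50 Tk1 UMIs (68%). All 4 Cdc6 UMIs lay there. Ccne1 was among the genes the cluster was named from. By contrast they held 8 of 131 Mcm6 UMIs (6.11%), 9 of 146 Rfc2 UMIs (6.16%) and 1 of 56 Gins4 UMIs (1.79%), close to the share of all UMIs. The P15 contrast rested on few cells, since among the 12 with at least 3000 UMIs 3 cells gave 72.2% of the UMIs of replication genes, and the other 9 had 1111 CPM.

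The Primitive cluster of P6 had 2.24-fold more of the replication genes than the 7 remaining clusters (2.15 to 2.34). Of 46 genes tested there, 28 were at least 2-fold higher and none 2-fold lower, against 3.16% higher and 32% lower of 11364 genes, and the median ratio of all genes was 0.71. Tk1 had 173 CPM there and 29.7 CPM in the 7 clusters, 5.82-fold higher (4.71 to 7.17). Rrm2 had 185 and 44.7 CPM, 4.13-fold higher (3.41 to 4.99). Rfc1 went the other way with 22.3 and 43.0 CPM, a ratio of 0.519 (0.316 to 0.807).

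No share over all genes was taken for Proliferative against Primitive cells of P6, so the counts below are not set against a background. They do not tell whether replication genes differed more than other genes. The median ratio of all genes was 0.958 for Proliferative against other P6 cells and 0.71 for Primitive against the 7 other clusters. Among the replication genes, 26 of 47 ratios of Proliferative to Primitive level had an interval above 1. For 20 the interval held 1, and for 1 it lay below 1. The licensing loader Cdc6 was among those that did not differ beyond counting error. It had 29.9 CPM in Proliferative and 27.6 CPM in Primitive cells, a ratio of 1.08 (0.661 to 1.81). Dut was another (226 and 220 CPM in the same order, ratio 1.03, 0.865 to 1.22). So were Cdt1 (40.6 and 41.4 CPM), Gins2 (52.0 and 51.0 CPM), Chaf1b (54.9 and 54.1 CPM) and Rpa2 (98.5 and 99.8 CPM). Ung was lower in Proliferative than in Primitive cells, with 31.1 and 48.8 CPM and a ratio of 0.636 (0.419 to 0.967). Genes of several roles were among those higher in Proliferative cells. Rrm2 was 1.89-fold higher (1.60 to 2.26) and Rfc1 3.11-fold (1.94 to 5.21). Of the polymerase genes, Pold1 was 2.40-fold higher (1.51 to 3.96) and Pole 4.12-fold (1.75 to 11.8). Ccne1 was 2.02-fold higher (1.29 to 3.29).

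To compare single cells at equal depth, each cell was drawn down to 3000 UMIs, which left 1392 P6 and 321 P15 cells and set aside 168 and 117 shallower ones. A median of 3 replication genes was detected per P6 cell and 1 per P15 cell. At least 10 of the 47 were detected in 236 P6 cells (17.0%, Clopper-Pearson interval 15.02 to 19.03) and in 4 P15 cells (1.25%, 0.341 to 3.16). Without thinning the shares were 28.3% and 1.83%. Among P6 clusters such cells made up 88 of 195 in Proliferative (45.1%, 38.0 to 52.4), 57 of 155 in Primitive (36.8%, 29.2 to 44.9), 19 of 91 in Capillary (20.9%, 13.1 to 30.7) and 27 of 205 in Stalk (13.2%, 8.86 to 18.6). They were 28 of 388 in Cap-Venous (7.22%, 4.85 to 10.3), 9 of 156 in Tip (5.77%, 2.67 to 10.7), 5 of 133 in Cap-Arterial (3.76%, 1.23 to 8.56) and 3 of 32 in Arterial (9.38%, 1.98 to 25.0). In Venous there were 0 of 37, which allows a share of up to 8.11% when 3 cells are taken as the limit for a count of 0. At P15, 3 of the 4 were Proliferative and 1 was Capillary, and Cap-Venous had 0 of 118, which allows up to 2.54% by the same rule.

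A difference between ages also remained in cells with fewer than 10 genes, though that cut was made on the replication genes themselves. In the 7 clusters outside Proliferative and Primitive, 91 of 1042 P6 cells held 37.2% of the UMIs of replication genes, and at P15 1 of 294 cells held 2.35%. The remaining cells had 914 CPM at P6 and 567 CPM at P15. When cells were chosen instead by having under 5 of 30 mitosis genes detected, a choice made after the data were seen, 925 P6 cells had 1076 CPM (1038 to 1116) and 294 P15 cells had 578 CPM (529 to 631), a ratio of 1.86 (1.69 to 2.05). Neither cut can be read as leaving only cells that do not divide. Among 195 P6 Proliferative cells, 107 had under 10 replication genes, at 1987.5 CPM. Among 155 P6 Primitive cells, 66 had under 5 mitosis genes, at 2515 CPM of replication genes. The Arterial level of P6 did rest on few cells. There 3 of 32 cells held 56.5% of the UMIs of replication genes, and the other 29 had 736 CPM. Unlabelled barcodes with a UMI of Neurod1, a gene of neurons, also carried these transcripts. The 98 at P6 had 1584 CPM of replication genes, beside 3469.9 CPM of the neuron list and 3258 CPM of endothelial markers. The 17 at P15 had 692 CPM, beside 13556 CPM of the neuron list and 10233 CPM of endothelial markers. Both sets held endothelial and neuronal RNA, so their replication UMIs cannot be assigned to 1 cell type. The part of free RNA in the low levels was not tested.

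Cells detected with replication genes and cells detected with mitosis genes overlapped in part. Among the 195 P6 Proliferative cells, 76 had at least 10 replication genes and at least 5 mitosis genes, 12 had only the former, 107 (54.9%, 47.6 to 62.0) only the latter and 0 had neither, which allows up to 1.54% when 3 cells are taken as the limit. Among 155 P6 Primitive cells 39 had both, 18 only replication genes, 50 only mitosis genes and 48 neither. None of the 15 P15 Primitive cells of that depth had either. The 7 other P6 clusters were mostly without both, from 61.5% of cells in Capillary to 97.3% in Venous. In Cap-Venous 20 of the 28 cells with at least 10 replication genes had under 5 mitosis genes, and in Stalk 9 of 27 did.

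**Figure D4:**
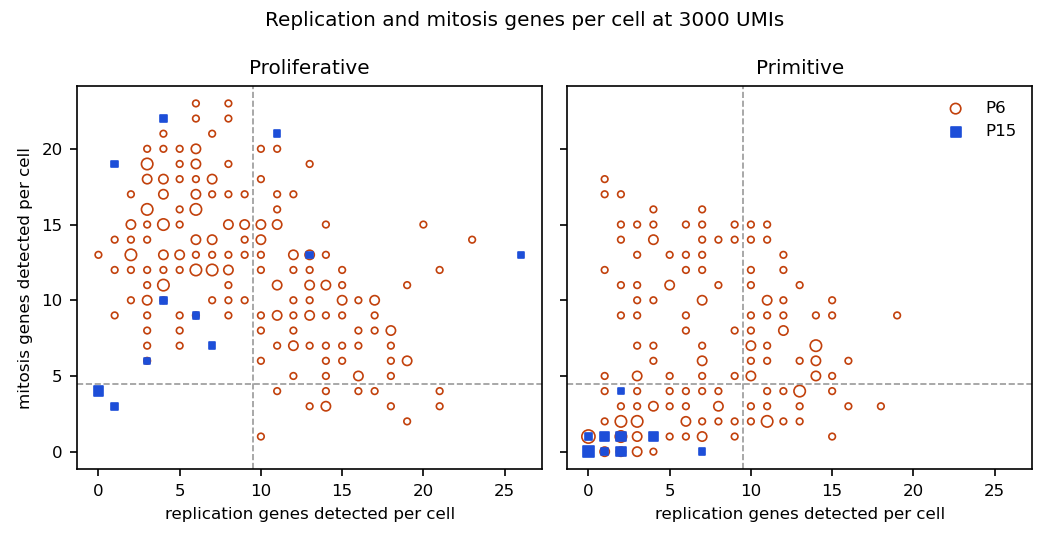
Number of replication genes (of 47) and mitosis genes (of 30) detected per cell at 3000 UMIs in the Proliferative and Primitive clusters of P6 (orange circles) and P15 (blue squares), with marker area in proportion to the number of cells and dashed lines at the limits of 10 and 5 genes. Proliferative P6 cells run from many mitosis genes and few replication genes to the reverse, and P15 Primitive cells lie at the lower left.

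The spread inside the Proliferative cluster was followed with 2 genes outside the set, Plk1 and Cdc20, which act from mitotic entry to anaphase. This split was chosen after the data were seen. At 3000 UMIs, 121 of the 195 P6 cells had a UMI of either gene and 74 had none. Replication genes summed to 5784 CPM in cells without and 3085 CPM in cells with them, a ratio of 1.87 (1.73 to 2.03). The other 28 mitosis genes went the other way, 5716 and 9708 CPM, a ratio of 0.589 (0.552 to 0.628).

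The 3 largest ratios of this split, among genes with at least 20 UMIs, were of licensing genes. Cdc6 had 19 UMIs in cells without Plk1 or Cdc20 and 2 in cells with them, a ratio of 15.5 (3.75 to 138). Mcm4 (162 and 30.3 CPM) was 5.35-fold higher in cells without (2.66 to 11.7), and Mcm2 (113 and 27.5 CPM) 4.09-fold (1.90 to 9.54). Ung, the uracil glycosylase, had 12 and 3 UMIs, a ratio of 6.54 (1.77 to 36.1). Chaf1a (8 and 1 UMIs, ratio 13.1, 1.75 to 580.4) and Pole (7 and 2 UMIs, ratio 5.72, 1.09 to 56.5) were higher too, on as few UMIs. Ccne2 was 3.97-fold higher (1.57 to 11.3) and Pcna 3.18-fold (2.13 to 4.84), with 333 and 105 CPM. Rrm2 was 1.87-fold higher (1.43 to 2.45), so that its level stayed at 292 CPM in cells with Plk1 or Cdc20. Tyms (279 and 242 CPM, ratio 1.15, 0.819 to 1.61), Tk1 (270 and 234 CPM, ratio 1.15, 0.815 to 1.63) and Rrm1 (189 and 201 CPM, ratio 0.941, 0.628 to 1.39) had ratios whose intervals held 1. The same was true of Rfc2 (1.04, 0.609 to 1.74) and Rpa3 (0.974, 0.587 to 1.59).

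**Figure D5:**
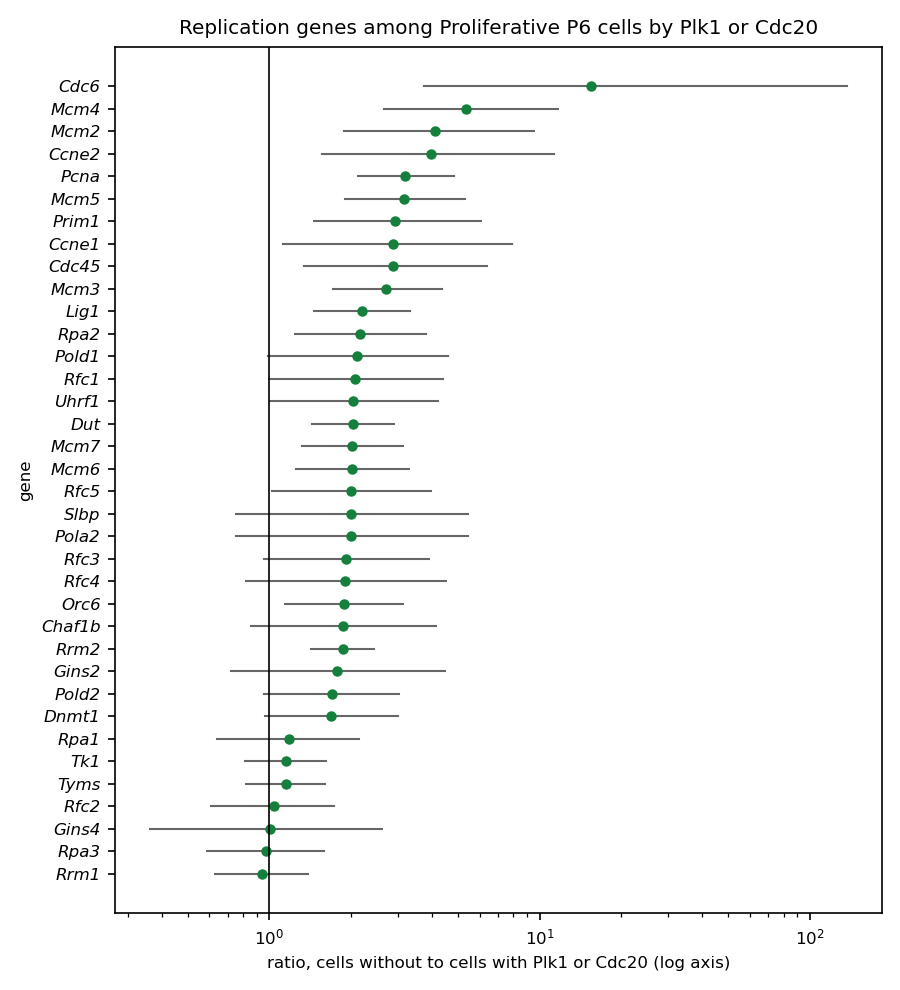
Ratio of level in the 74 P6 Proliferative cells without a UMI of Plk1 or Cdc20 to that in the 121 cells with one, on a log axis, for the 36 replication genes with at least 20 UMIs in these cells. Points are ratios and bars 95% intervals. Cdc6 lies highest at 15.5, MCM subunits and Pcna lie between about 2.02 and 5.35, and Rrm1, Rpa3, Gins4 and Rfc2 lie at about 1.

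Further replication genes, from a list of 50 that holds none of the 48, differed less. Of 48 of them tested, 24 were at least 2-fold higher at P6 and none lower by that much, with a median ratio of 2.03, beside the background of 8.85% and the 35 of 47 given above. Pclaf, a partner of PCNA, had 216 CPM at P6 and 27.6 CPM at P15, 7.84-fold higher (6.05 to 10.3). Tonsl went the other way with 171 and 207 CPM, a ratio of 0.827 (0.745 to 0.921), and Rnaseh2c had a ratio of 1.29 (1.13 to 1.46). Nasp, a histone chaperone, was 1.65-fold higher and Tipin, of the fork protection complex, 2.67-fold. The mitosis genes differed more, with 27 of 29 tested at least 2-fold higher and none lower, and a median ratio of 4.97. Of these Hmgb2 was 4.02-fold higher, Cdk1 4.97-fold, Top2a 7.41-fold and Ube2c 6.92-fold, while Tubb4b was 1.47-fold higher (1.29 to 1.68). Outside Proliferative and Primitive the summed mitosis genes had 1056 CPM at P6 and 293 CPM at P15, a ratio of 3.6 (3.30 to 3.93).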

How the data were processed

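The authors deposited counts of UMIs per Ensembl gene and cell barcode, 1 table per age, without normalization. The submitters' processing notes name Seurat 3.0 and mm10, and the aligner and annotation of these counts were not given in the sources used here. Cluster labels came from the authors' source data, complete for P6 and cut short for P15. Symbols were matched to 22695 of 22734 P6 and 21745 of 21785 P15 identifiers, and rows of one symbol were added. UMIs were summed over cells and divided by all UMIs of those cells (CPM). For a level the 95% interval was exact Poisson, for a ratio it was binomial given the summed count, and for a share it was Clopper-Pearson. A gene counted as 2-fold different needed at least 20 UMIs, with a 0 taken as 0.5 UMI for that call only, and 3 UMIs bounded a fold against 0, as 3 cells did a share of 0. Thinning drew UMIs without replacement. No doublet caller was run, and an alternative left out cells holding Xist together with Y-linked UMIs. All 48 members are named by rule, as are the 5 genes with most UMIs of the other 2 lists. The members and lists were chosen with earlier results of these data known. P6 and P15 counts were also simulated by Poisson draws, without variation between cells or libraries. There the interval covered the simulated ratio in 96.4% of 12060 genes. Of 194 genes changed 4-fold 99.5% were called, and of unchanged genes 2.77%. The intervals rest on the same Poisson model, so this checks the calculation and not the spread of real cells. Python 3.11.15, numpy 2.4.6, scipy 1.17.1, pandas 2.3.3 and matplotlib 3.10.9 were used.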

Additional observations from a re-analysis of the deposited data

Results flagged for a closer look

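Barcodes without a cluster label stayed outside the comparisons above but also carried replication genes. At 3000 UMIs, 68 of 359 unlabelled P6 barcodes and 13 of 1270 unlabelled P15 barcodes had at least 10 of the 47 genes. Of these, 40 and 1 had more than 3500 genes detected, the upper limit of the authors' filter as read here. A Neurod1 UMI was present in 4 and 0, and both Xist and Y-linked UMIs in 2 and 0. P6 barcodes over that limit had 2762 CPM when unlabelled and 2832 CPM when labelled, and P15 ones 658 and 1303 CPM.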

How the results depend on the processing

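No summed level or count of genes changed direction, and of the single genes Gins3 did, from 0.957 to 1.48 in cells that passed the stated filter, with intervals that both held 1. The P6 to P15 ratio of summed level was 3.01 without mitochondrial and ribosomal protein UMIs in the denominator, 3.14 over every barcode and 2.93 with the median gene ratio set to 1. Outside Proliferative and Primitive these were 2.49 without those UMIs and 2.41 with the median set to 1, and 1.86 in cells with under 5 mitosis genes. Proliferative against other P6 cells was 2.66 after thinning, and Primitive was 2.44 without mitochondrial and ribosomal UMIs. The P6 share of cells with at least 10 genes was 21.3% when 8 genes were asked for, 10.8% when 12 were, 7.43% at 2000 UMIs and 28.3% without thinning. The further letters TTCCCGCC, of the same length and added after the data were seen, were in 17.5% of the 40 start regions and 2.52% of all. The other 36 alternatives, the counts of genes past 2-fold and the P15 shares among them, stayed within their intervals or 1.5 times the main count. Each age is 1 library, so replicates could not be left out. No paired analysis was possible because the ages share only 1 replicate number and no result comes from a test. Ratios with under 10 UMIs at P15 are limited by depth.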
